A study of Mus musculus with 8 samples.

Results

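The genes described here are 9 markers of low-threshold mechanoreceptors and proprioceptors, the neurons of the dorsal root ganglia that report light touch and limb position. They were chosen by symbol, as 9 of the 25780 gene symbols counted: Pvalb, Calb1, Calb2, Spp1, Runx3, Etv1, Slc17a7, Slc17a8 and Tafa4. The study compared mouse ganglia with and without the histone methyltransferase G9a, encoded by Ehmt2, after inflammation of the paw or vehicle. The 4 groups, of 2 libraries each, were G9a-iKO mice given CFA, G9a-iKO mice given vehicle, WT mice given CFA and WT mice given vehicle. CFA is complete Freund's adjuvant, an inflammatory agent, and the injection into the left paw preceded tissue collection by 14 days in every group. G9a-iKO mice, called iKO below, carried G9a flox/flox and Avil-iCreERT2/AJwo, an inducible Cre recombinase under a gene of sensory neurons, so other cells of the ganglion keep G9a by design. WT mice were littermates that lacked Cre. Whether WT mice carried floxed alleles, how Cre was induced, the age and sex of the mice, the CFA dose, and the side and spinal levels of the ganglia were not given in the sources used here. The labels do not say whether the libraries of a group came from separate animals, so the p-values below rest on library-to-library spread, which may be technical.

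Proprioceptors carry signals from muscle spindles and tendon organs and are classically marked by parvalbumin (Pvalb), by the transcription factors Runx3 and Etv1, and by osteopontin (Spp1). Large myelinated touch neurons share several of these markers, express the vesicular glutamate transporter VGLUT1 (Slc17a7), and include subsets with the calcium-binding proteins calbindin (Calb1) and calretinin (Calb2). The unmyelinated C-fibre low-threshold mechanoreceptors (C-LTMRs) instead express VGLUT3 (Slc17a8) and the secreted protein Tafa4. Vesicular glutamate transporters load glutamate, the transmitter of sensory neurons, into synaptic vesicles.

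The promoters of Slc17a7 and Etv1 are shown because these members passed the threshold used below for a difference in CFA response between genotypes. With libraries scaled by pan-neuronal genes neither passed, and the log2 differences, iKO minus WT, were -0.81 for Slc17a7 and -0.36 for Etv1. The difference also draws on the WT vehicle libraries, which stood apart from the rest as described below. The sequences are from RefSeq on GRCm38.p6, another build than the one used for the counts, and run from 250 bases before to 50 bases after the annotated start, with CG dinucleotides in capitals. The Slc17a7 promoter lies at chr7:45163671-45163970 on the plus strand and the Etv1 promoter, the first of 2 entries for that gene, at chr12:38779832-38780131 on the plus strand.
Slc17a7: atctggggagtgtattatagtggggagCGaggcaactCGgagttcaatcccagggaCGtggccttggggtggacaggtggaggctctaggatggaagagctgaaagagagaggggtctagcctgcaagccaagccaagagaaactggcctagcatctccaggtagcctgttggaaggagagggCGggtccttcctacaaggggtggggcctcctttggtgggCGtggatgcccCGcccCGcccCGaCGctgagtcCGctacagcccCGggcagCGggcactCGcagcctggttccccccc
Etv1: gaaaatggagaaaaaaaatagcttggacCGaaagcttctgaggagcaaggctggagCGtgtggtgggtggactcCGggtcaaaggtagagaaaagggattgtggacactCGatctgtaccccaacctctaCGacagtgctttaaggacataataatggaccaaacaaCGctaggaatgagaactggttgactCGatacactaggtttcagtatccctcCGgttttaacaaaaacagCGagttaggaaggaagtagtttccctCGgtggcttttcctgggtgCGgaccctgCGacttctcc
The motif searched was CG, which reads the same on both strands, and no other motif was searched. It occurred 13 times in the Slc17a7 promoter 12 times in this Etv1 promoter and 3 times in the second Etv1 entry, which is not shown. Of 32851 mouse promoters of that length, a set without those of a single chromosome, 94.6% held at least 1 CG, and the median was 7. A promoter was listed for 7 of the 9 members, with no entry for Calb1 and Calb2. These counts describe the sequence and say nothing of histone marks, which were not analysed here.

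Library totals lay between 26312614 and 42971823 reads, and the 9 members were counted with between 48 reads (Calb2 in WT CFA library 2) and 10238 reads (Spp1 in WT vehicle library 1). All 9 passed the filter on low counts, as did 20235 genes in all. Values are given as CPM, depth-scaled counts whose library sizes were adjusted with edgeR's TMM factors. Ehmt2, the deleted gene, was at 45.0 and 44.2 CPM in iKO CFA and 34.0 and 31.6 CPM in iKO vehicle, against 74.2 and 61.3 CPM in WT CFA and 74.4 and 65.4 CPM in WT vehicle, so all 4 iKO libraries were below all 4 WT libraries. Averaged over treatments its log2 fold change was -0.85 ± 0.12 (adjusted p = 0.00718, edgeR quasi-likelihood test).

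Some libraries stood apart from the rest. Malat1, a nuclear noncoding RNA, was between 27.4 and 57.0 CPM in the iKO and WT CFA libraries, against 1323 and 1187 CPM in WT vehicle. The immediate early gene Fos was between 3.01 and 5.87 CPM in those libraries, against 99.1 and 91.9 CPM in WT vehicle. In comparisons that use WT vehicle, treatment or genotype cannot be told apart from what set those libraries apart. The comparisons of CFA with vehicle in iKO and of iKO with WT under CFA do not contain them. WT CFA libraries 1 and 2 differed more from each other than any other pair, with a median absolute log2 difference of 0.60 per gene, against 0.17 to 0.29 in the other groups. Long genes were low relative to short genes in iKO CFA, with a log2 difference between the longest and the shortest genes, each 25% of those with a length, of -0.49 and -0.51, and in WT CFA library 2, with -0.50. The other libraries were between 0.23 and 0.30. Summed CPM of 22 pan-neuronal genes was 16014 and 15534 in iKO CFA, 24901 and 25054 in iKO vehicle, 25002 and 17077 in WT CFA, and 12253 and 15720 in WT vehicle. In bulk samples such as these, fewer cells of a type and less RNA per cell cannot be told apart.

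Per kilobase of exon (GENCODE M21, GRCm38), the scale on which genes can be compared, Spp1 averaged 133 CPM per kb over the 8 libraries and Pvalb 99.5. Slc17a7 followed at 31.4 CPM per kb, then Tafa4 at 8.61, Etv1 at 7.57, Calb2 at 5.58, Calb1 at 4.76, Slc17a8 at 2.73 and Runx3 at 1.48. All 9 members and all 22 pan-neuronal genes had reads in every library. The range over libraries was widest for Calb2, whose highest library was 13.2 times its lowest, and narrowest for Tafa4, at 2.02 times.

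**Figure D1:**
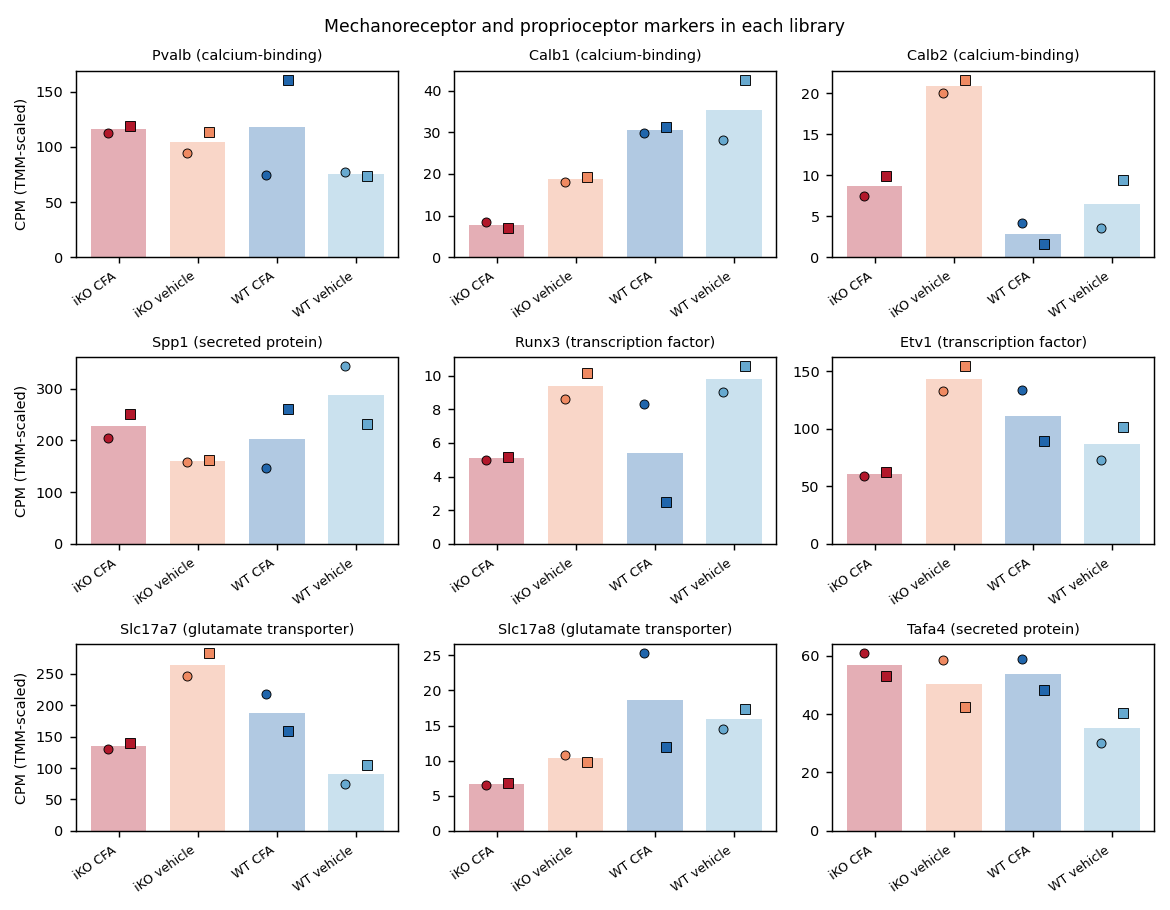
CPM (vertical axis, TMM-scaled) of each of the 9 members in the 4 groups; bars are means, circles library 1 and squares library 2. Calb1 was lower in all 4 iKO libraries than in any WT library, while Pvalb spanned 74.9 to 161 CPM within the WT CFA group.

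The members did not move as 1 group, and the clearest difference was between genotypes. Averaged over treatments, Calb1 and Slc17a8 fell and Calb2 rose in iKO ganglia, 3 of 9 members past an adjusted p of 0.05, where 5.58% of the 20235 genes tested were called. Calb1 and Slc17a8, 2 of 9, also had all 4 iKO libraries on the same side of all 4 WT libraries, as 6.35% of all genes did. Under vehicle 3 of 9 were called (17.6% of all genes), with Slc17a7 and Calb2 higher and Calb1 lower in iKO. Under CFA 1 of 9 was called (1.70% of all genes), with Calb1 lower in iKO. CFA against vehicle called 1 of 9 in WT, with Slc17a7 higher (16.8% of all genes). In iKO it called 0 of 9 with edgeR (0.0395% of all genes). DESeq2 called 3 of 9 there, Calb1, Etv1 and Slc17a7, each lower with CFA, where it called 15.6% of all genes. The difference between the CFA responses of the genotypes, iKO minus WT, called Slc17a7 and Etv1, 2 of 9 (9.36% of all genes). Pvalb, Spp1, Runx3 and Tafa4 passed in no comparison. These counts moved with single libraries. The share of all genes called moved with the same libraries. Without WT CFA library 1 the genotype comparisons called 8 members under vehicle (39.2% of all genes), 2 under CFA (3.29%) and 5 averaged (23.7%). CFA against vehicle then called 6 in iKO (32.2%) and 4 in WT (34.6%), and 4 passed in the interaction (21.4%). With WT CFA library 2 left out instead, the genotype comparisons called 8 under vehicle (38.9% of all genes), 5 under CFA (26.8%) and 5 averaged (21.9%). CFA against vehicle then called 6 in iKO (32.0%) and 5 in WT (29.9%), and the interaction 5 (38.2%). Leaving out 1 library of another group gave 0 to 2 members under vehicle (1.84% to 9.70% of all genes), 0 to 1 under CFA (0.342% to 0.970%), 1 to 2 averaged (1.52% to 2.27%) and 0 to 2 in the interaction (1.06% to 4.73%). The comparisons share libraries: both vehicle groups and both CFA groups enter several of them, so the calls are not independent of one another.

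**Figure D2:**
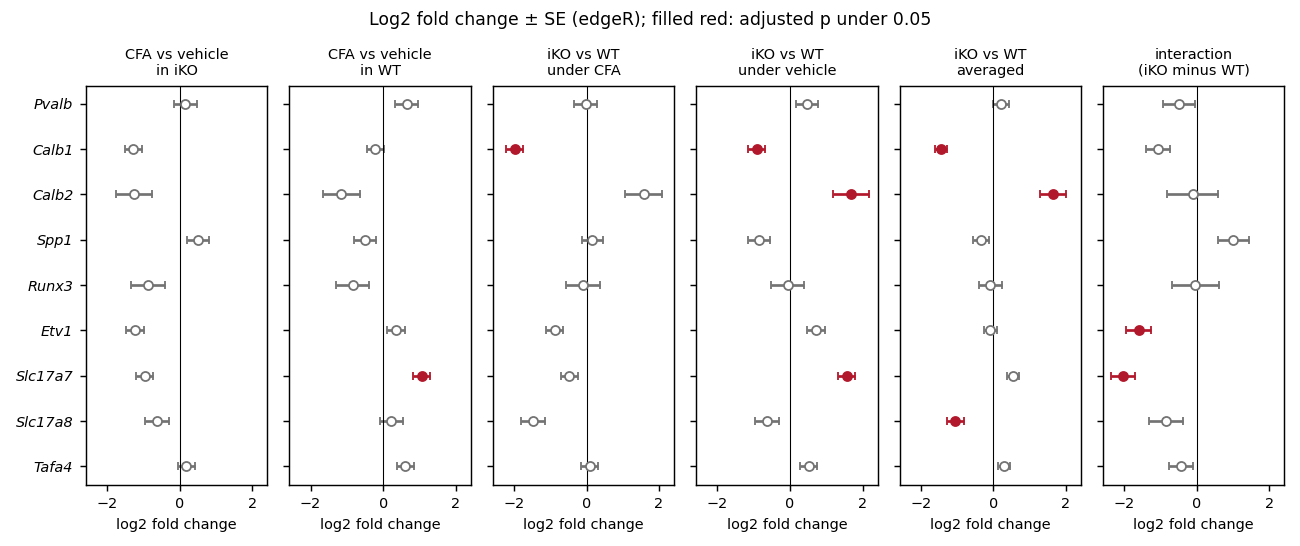
Log2 fold change (horizontal axis) with its standard error for the 9 members in each of the 6 comparisons, with filled red points past an adjusted p of 0.05. Calb1 lies left of 0 in every comparison, at -1.98 for iKO against WT under CFA, and the 2 members called in the interaction panel, Slc17a7 and Etv1, lie at -2.03 and -1.60.

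Among the calcium-binding proteins, Calb1 was lowest in iKO. It was at 8.38 and 7.04 CPM in iKO CFA and 18.1 and 19.4 CPM in iKO vehicle, against 29.8 and 31.2 CPM in WT CFA and 28.0 and 42.7 CPM in WT vehicle. Every iKO library was below every WT library, and the iKO CFA libraries were below the iKO vehicle libraries. Calb1 fell in iKO in each genotype comparison, with a log2 fold change of -1.45 ± 0.16 averaged over treatments (adjusted p = 0.00197), -1.98 ± 0.24 under CFA (adjusted p = 0.00542) and -0.92 ± 0.23 under vehicle (adjusted p = 0.0288). Averaged over treatments, the call held in all 16 alternative settings, and with libraries scaled by the pan-neuronal genes, so that a member is read relative to neuronal RNA, the log2 difference was -1.55 (adjusted p = 0.0150). Under CFA the call was lost with pan-neuronal scaling (-1.51, adjusted p = 0.0841), with a fit of the compared libraries alone (-1.99, adjusted p = 0.0839), and without iKO CFA library 1 or 2 (adjusted p = 0.0569 and 0.0922). Under vehicle it was lost without iKO CFA library 1, without iKO vehicle library 1 or 2 and without WT vehicle library 2 (log2 -0.91, -0.87, -0.96 and -0.60). CFA against vehicle in iKO gave -1.28 ± 0.23 (adjusted p = 0.0831), and in WT -0.22 ± 0.23.

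Calb2 went the other way. It was at 7.44 and 9.92 CPM in iKO CFA and 20.1 and 21.7 CPM in iKO vehicle, against 4.11 and 1.64 CPM in WT CFA and 3.55 and 9.38 CPM in WT vehicle. The iKO vehicle libraries were the highest, and WT vehicle library 2 lay between the 2 iKO CFA libraries. Averaged over treatments Calb2 rose in iKO by 1.63 ± 0.36 on the log2 scale (adjusted p = 0.0352) and under vehicle by 1.69 ± 0.50 (adjusted p = 0.0493). Under CFA the difference was 1.58 ± 0.51 (adjusted p = 0.195). The averaged call was kept in 9 of 16 alternatives, and the settings that ended it included leaving out any 1 of the 4 iKO libraries, leaving out WT vehicle library 1 (1.37, adjusted p = 0.113) and the correction for gene length (1.47, adjusted p = 0.0597). The vehicle call was kept in 8 of 17 alternatives, with 1.14 (adjusted p = 0.293) without WT vehicle library 1. Calretinin is also made by mesothelium, the lining of body cavities, and 4 of 5 mesothelial markers were in the files, with a summed CPM of 9.65 to 13.4 in iKO CFA, 6.80 to 10.4 in iKO vehicle, 6.54 to 9.21 in WT CFA and 6.87 to 7.42 in WT vehicle. Upk1b was at 0 in 3 libraries and Wt1 in 1, and the part of mesothelium in the Calb2 difference was not tested.

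Because Calb1 and Calb2 moved oppositely, their read ratio within a library separated the genotypes without any scaling between libraries. Calb2 reads over Calb1 reads were 0.888 and 1.41 in iKO CFA and 1.11 and 1.12 in iKO vehicle. The ratio was 0.138 and 0.0527 in WT CFA and 0.127 and 0.220 in WT vehicle. All 4 iKO ratios were above all 4 WT ratios, and this ratio was chosen after the values were seen, so no test is given.

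**Figure D3:**
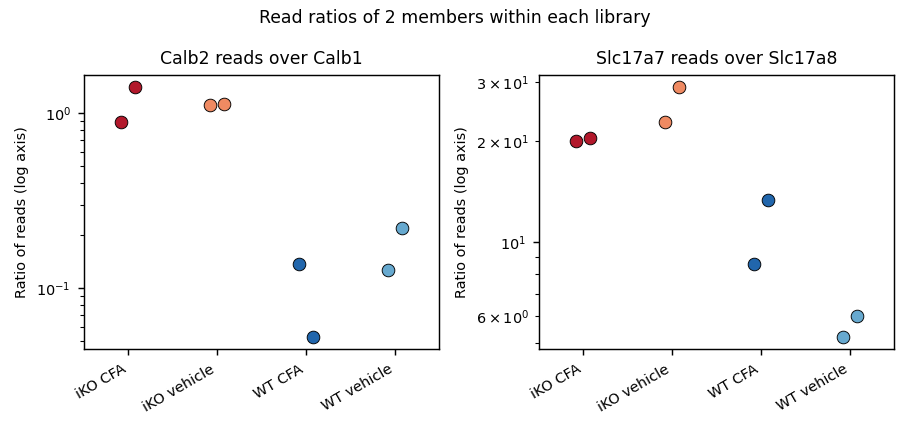
Ratio of reads of 2 members within each library, on log axes, with 1 point per library. Calb2 over Calb1 was 0.888 or more in iKO and 0.220 or less in WT, and Slc17a7 over Slc17a8 was 20.0 or more in iKO and 13.3 or less in WT.

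Pvalb, the marker of proprioceptors, did not pass in any comparison. It was at 113 and 119 CPM in iKO CFA and 94.9 and 114 CPM in iKO vehicle, against 74.9 and 161 CPM in WT CFA and 77.3 and 73.8 CPM in WT vehicle. The WT CFA libraries held both the highest value and one near the lowest, so that group overlapped the others. The averaged difference between genotypes was 0.22 ± 0.22 (adjusted p = 0.614). Parvalbumin is also a protein of fast muscle fibres. The summed CPM of 16 skeletal muscle genes was between 8.33 and 17.9 in 7 libraries and 617 in WT vehicle library 1. Pvalb was at 77.3 CPM in that library and 73.8 CPM in the other WT vehicle library. The part of muscle in Pvalb was not tested.

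Of the secreted proteins, Spp1 was at 204 and 251 CPM in iKO CFA and 158 and 162 CPM in iKO vehicle, against 146 and 260 CPM in WT CFA and 343 and 232 CPM in WT vehicle. Both iKO vehicle libraries were below both WT vehicle libraries, and the difference under vehicle was -0.84 ± 0.30 (adjusted p = 0.0839). Osteopontin is also made by macrophages. All 15 macrophage markers had reads in every library, with a summed CPM of 804 and 876 in iKO CFA, 232 and 174 in iKO vehicle, 228 and 645 in WT CFA and 1041 and 782 in WT vehicle, low in the same libraries in which Spp1 was low, and the part of macrophages was not tested. Tafa4, the C-LTMR product, was at 60.8 and 53.1 CPM in iKO CFA and 58.5 and 42.3 CPM in iKO vehicle, against 58.9 and 48.4 CPM in WT CFA and 30.1 and 40.3 CPM in WT vehicle. Its largest difference was CFA against vehicle in WT, 0.61 ± 0.23 (adjusted p = 0.104), where both CFA libraries were above both vehicle libraries.

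Of the transcription factors, Etv1 was called in the difference between the CFA responses of the genotypes, though not with pan-neuronal scaling. It was at 58.8 and 62.1 CPM in iKO CFA and 133 and 154 CPM in iKO vehicle, against 133 and 89.6 CPM in WT CFA and 72.9 and 101 CPM in WT vehicle. In iKO the CFA libraries were well below the vehicle libraries, and in WT the groups overlapped. The CFA response was -1.25 ± 0.25 in iKO (adjusted p = 0.0877) and 0.35 ± 0.24 in WT (adjusted p = 0.346), and their difference was -1.60 ± 0.35 (adjusted p = 0.0289). With pan-neuronal scaling, which raised the all-gene median of this comparison by 1.20, the difference was -0.36 (adjusted p = 0.412). Of the fits that left out 1 library, the call was also lost without iKO CFA library 1 or 2, without iKO vehicle library 1 or 2 and without WT vehicle library 1 (log2 -1.71 to -1.36). Runx3, which proprioceptors need in development, was at 5.001 and 5.15 CPM in iKO CFA and 8.60 and 10.1 CPM in iKO vehicle, against 8.33 and 2.50 CPM in WT CFA and 9.01 and 10.5 CPM in WT vehicle. It was lower in both CFA libraries of each genotype, with a log2 difference of -0.88 ± 0.46 in iKO (adjusted p = 0.238) and -0.85 ± 0.46 in WT (adjusted p = 0.236), neither past the threshold. Runx3 is also made by T and NK cells, whose 16 markers summed to 21.7 and 23.2 CPM in iKO CFA, 16.4 and 14.3 CPM in iKO vehicle, 4.27 and 8.45 CPM in WT CFA and 100 and 72.2 CPM in WT vehicle, and 6 of the 16 were at 0 in some library. Their part in Runx3 was not tested.

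Of the vesicular glutamate transporters, Slc17a7 was called in the difference between the CFA responses of the genotypes, though not with pan-neuronal scaling. It was at 131 and 140 CPM in iKO CFA and 247 and 283 CPM in iKO vehicle, against 218 and 158 CPM in WT CFA and 75.4 and 104 CPM in WT vehicle. The iKO vehicle libraries were highest and the WT vehicle libraries lowest, with no overlap between these groups. With CFA Slc17a7 rose in WT by 1.07 ± 0.23 (adjusted p = 0.0196), and in iKO the difference was -0.97 ± 0.23 (adjusted p = 0.0943). Between genotypes under vehicle Slc17a7 rose by 1.56 ± 0.24 in iKO (adjusted p = 0.00507), and the difference between CFA responses was -2.03 ± 0.33 (adjusted p = 0.0107). With pan-neuronal scaling that difference was -0.81 (adjusted p = 0.110), while the vehicle difference was 0.89 (adjusted p = 0.0408). The call of the difference was lost when iKO vehicle library 2, WT vehicle library 1 or either iKO CFA library was left out, with adjusted p between 0.0564 and 0.0637. The vehicle call was lost without iKO vehicle library 2 (1.46, adjusted p = 0.0558) or WT vehicle library 1 (1.33, adjusted p = 0.0610), and the WT call of CFA without iKO CFA library 1 or 2 or WT vehicle library 1 (0.85, adjusted p = 0.167). With pan-neuronal scaling the WT difference with CFA was 0.69 (adjusted p = 0.106).

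Slc17a8 was at 6.57 and 6.88 CPM in iKO CFA and 10.9 and 9.76 CPM in iKO vehicle, against 25.3 and 11.9 CPM in WT CFA and 14.5 and 17.3 CPM in WT vehicle. All 4 iKO libraries were below all 4 WT libraries. Averaged over treatments it fell, with a log2 fold change of -1.05 ± 0.23 (adjusted p = 0.0374), and under CFA the difference was -1.47 ± 0.33 (adjusted p = 0.0766). With pan-neuronal scaling the averaged difference was -1.07 (adjusted p = 0.0451). The averaged call was kept in 9 of 16 alternatives, and of the fits that left out 1 library it was lost without any 1 of the 4 iKO or 2 WT vehicle libraries (adjusted p 0.113 to 0.153). Slc17a7 reads over Slc17a8 reads were 20.0 and 20.4 in iKO CFA and 22.7 and 29.0 in iKO vehicle, against 8.61 and 13.3 in WT CFA and 5.21 and 6.03 in WT vehicle, again with no overlap between genotypes, and this ratio was also chosen after the values were seen.

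Other markers of the same neurons were read from lists chosen with results of these data known. Of 29 other proprioceptor and A-fibre mechanoreceptor markers, 6 rose and 0 fell in iKO under vehicle, where 17.6% of all genes were called, with a median log2 difference of 0.71, against 0.01 over all genes. The median of the 22 pan-neuronal genes was 0.81 in that comparison. Those with the smallest p were Cntnap2, which organises ion channels beside the node of Ranvier (1.37 ± 0.24, adjusted p = 0.00899), Hapln4 (2.07 ± 0.42, adjusted p = 0.0143), Faim2 (1.52 ± 0.31, adjusted p = 0.0151) and the nuclear receptor Esrrg (1.30 ± 0.29, adjusted p = 0.0212). In the difference between CFA responses 7 of 29 fell and 0 rose (9.36% of all genes were called), with a median of -1.48 against -0.04 over all genes. Lists of other neurons had negative medians there too, -1.33 for the pan-neuronal genes (22 of 22 negative), -1.01 for non-peptidergic nociceptor markers (11 of 11) and -0.79 for peptidergic nociceptor markers (6 of 6). The A-fibre markers with the smallest p in the interaction were Cntnap2 (-1.85 ± 0.34), Hapln4 (-2.93 ± 0.58), Esrrg (-2.08 ± 0.42) and Faim2 (-2.15 ± 0.44), with adjusted p from 0.0165 to 0.0235. This comparison contains the vehicle libraries of the one before. With pan-neuronal scaling 2 of 29 were called there (13.4% of all genes) and the median was -0.19, and under vehicle 3 were called (13.4% of all genes) with a median of 0.04. In CFA against vehicle in iKO 0 of 29 passed with edgeR (0.0395% of all genes) and 20 with DESeq2 (15.6%), and the median was -1.22 with 27 of 29 negative. Other lists differed between the same libraries. The 10 markers of myelinating Schwann cells, the glia that wrap large axons, were all positive, with a median of 1.08 and a summed CPM of 16378 and 15106 in iKO CFA, against 6282 and 7174 in iKO vehicle. The 6 adipocyte markers had a median of 5.19 and a summed CPM of 40.0 and 61.6 in iKO CFA, against 0.858 and 1.46 in iKO vehicle, where 1 of the 6 was at 0 in each library. Mitochondrial genes took 6.09% and 5.95% of reads in iKO CFA, against 1.34% and 1.86% in iKO vehicle. The part of these in the difference was not tested. Single libraries decided these counts: leaving out 1 library gave 0 to 20 called markers under vehicle and 0 to 24 in the difference between CFA responses, where 1.84% to 39.2% and 1.06% to 38.2% of all genes were called, with the highest counts without a WT CFA library and 0 without iKO vehicle library 1 or 2 or WT vehicle library 1 under vehicle.

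Of 9 other C-LTMR markers, Ceacam10 was the 1 called. It was higher in iKO averaged over treatments (1.38 ± 0.19, adjusted p = 0.00480), where 5.58% of all genes were called. It was also higher under vehicle (1.62 ± 0.26, adjusted p = 0.00675), where 17.6% of all genes were called. Ceacam10 was at 17.7 and 13.0 CPM in iKO CFA and 18.7 and 13.8 CPM in iKO vehicle, against 7.13 and 6.81 CPM in WT CFA and 4.66 and 5.93 CPM in WT vehicle. All 4 iKO libraries were above all 4 WT libraries, the opposite order to Slc17a8. The genotypes did not overlap in 6.35% of all genes. In no comparison were Th, Gfra2 or Piezo2 of that list called. Without WT CFA library 2, so that library 1 alone stood for WT CFA, all 9 were called for iKO against WT under CFA, where 26.8% of all genes were called, against 1.70% with both WT CFA libraries. Without iKO vehicle library 1 or WT vehicle library 1 the count under vehicle was 0. Among 10 relatives and partners of the members, 2 rose and 1 fell in iKO under vehicle (17.6% of all genes), with a median of 0.41. With CFA in WT 1 rose and 1 fell (16.8%), and in the interaction 1 rose and 1 fell (9.36%). The gene that fell under vehicle was Runx2, a paralogue of Runx3 (-1.61 ± 0.30, adjusted p = 0.0112). Runx2 was also the one lower with CFA in WT (-2.29 ± 0.31, adjusted p = 0.00414). It was between 1.92 and 4.17 CPM in the iKO and WT CFA libraries, against 12.8 and 11.5 CPM in WT vehicle. Over all 10 relatives, leaving out 1 library gave 0 to 7 called under vehicle (1.84% to 39.2% of all genes) and 1 to 5 for CFA in WT (1.21% to 34.6%).

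**Figure D4:**
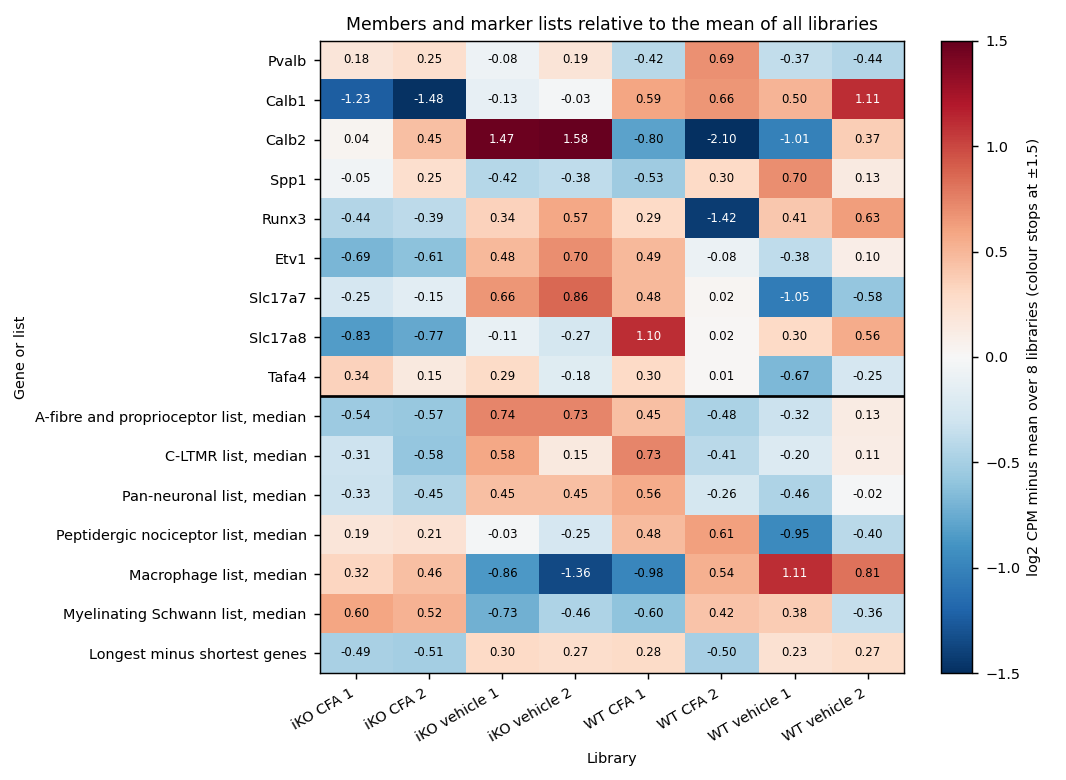
Log2 CPM minus the gene's mean over the 8 libraries for the 9 members (rows above the line), the median of that value over 6 marker lists, and the difference between the longest and shortest genes, by library. Calb1 is low in both iKO CFA libraries (-1.23 and -1.48), and the A-fibre list is high in both iKO vehicle libraries (0.74 and 0.73).

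The genes closest to each member in profile over the 8 libraries, by root mean square difference of centred log2 CPM among 12970 genes, were Epn3, Lgi3 and Cntnap2 for Slc17a7 (0.080 to 0.108) and Map7d2, Gpr157 and Cntn1 for Etv1 (0.105 to 0.118). For Pvalb they were Tmem11, Particl and Mrps35, for Spp1 Lims2, Itgb8 and Mmp14, and for Tafa4 Pcbd1, Orai1 and Slc25a14, all at 0.083 to 0.122. Runx3 had Tbc1d8, Zc3h12b and Rfx7 and Slc17a8 had Mmp25, Prr36 and Hal at 0.147 to 0.224. Calb1 and Calb2 had no gene as near, their closest being Klhl33, Unc5d and Gpr63 (0.323 to 0.359) and Nos1, Vegfd and Itga11 (0.340 to 0.441). This distance is not scaled by a gene's own spread, so a member that varies more has larger distances. The own spread, the root mean square of centred log2 CPM, was 0.87 for Calb1 and 1.18 for Calb2. In the other members it was 0.33 to 0.66. Among the members themselves the nearest pair was Etv1 and Slc17a7, at 0.414.

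**Figure D5:**
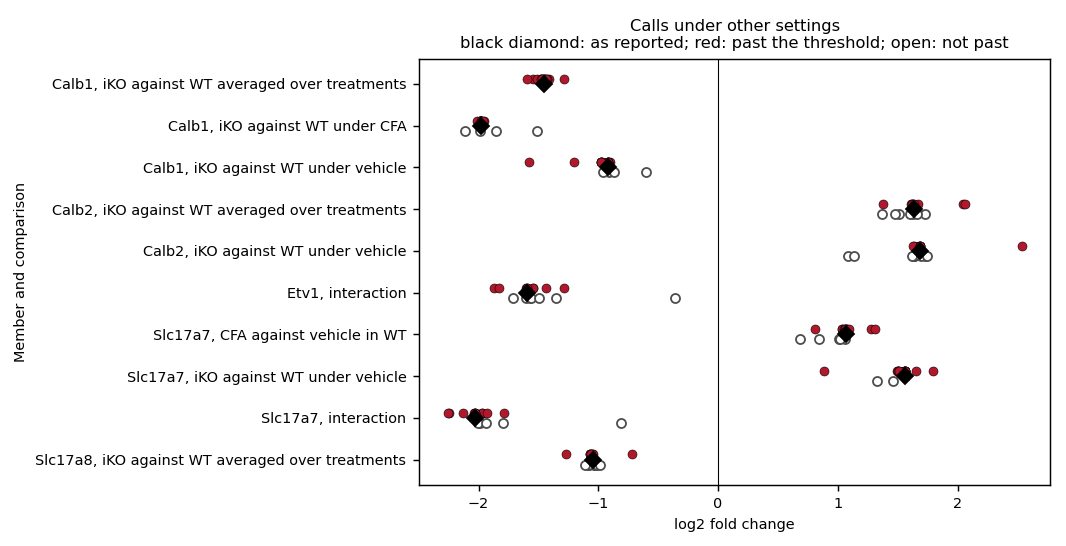
Log2 fold change (horizontal axis) of each called member and comparison under the other settings, with the black diamond as reported, red points past an adjusted p of 0.05 and open points not past it. Calb1 averaged over treatments is past the threshold in all 16 settings, while the interactions of Slc17a7 and Etv1 move toward 0 in the setting scaled by pan-neuronal genes.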

How the data were processed

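Reads per gene were counted by the authors and deposited as raw counts, 1 whole number per gene symbol and library, with 0 columns of other samples in the files used. Per the submitters' processing notes, HISAT2 2.2.1, SAMtools 1.19.2 and featureCounts 2.0.6 were used with the mouse build GRCm39 (mm39), and DESeq2 was named without a version. Annotation and strand setting were not given in the sources used here, so reads of overlapping genes on opposite strands may not have been told apart.

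Counts of 25780 symbols in 8 libraries were filtered with filterByExpr, which kept 20235 genes, scaled by TMM and fitted with edgeR 4.0.16 in R 4.3.3, with a mean for each of the 4 groups and 1 shared estimate of the spread. Two-sided quasi-likelihood F-tests covered 6 comparisons, with Benjamini-Hochberg adjustment over all genes tested and calls at an adjusted p under 0.05. Each log2 fold change has its standard error after the ± sign. Counting error adds to the replicate spread for low members, and the lowest member count was 48.

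The 9 members were all named in every comparison, Ehmt2 as the check of the genotype, at most 4 genes of each other list by the smallest p, and 3 genes nearest in profile per member among genes with a mean log2 CPM of at least 1. Members and lists were chosen with earlier results of these data known.

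Alternatives were the edgeR fit with RLE in place of TMM factors, the Wald test of DESeq2 1.42.0, and no filter on low counts. The edgeR fit was also run with the other setting of its legacy option and with the replicate number as a block. Further alternatives were scaling by pan-neuronal genes, no mitochondrial genes, the compared libraries alone, and leaving out each library. A correction of the trend with gene length was added after seeing the data. Where a library was left out, the lone library of its group was assumed to vary like the other groups. No libraries of a group were duplicates, with chi-square per degree of freedom of 11.7 or more.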

Additional observations from a re-analysis of the deposited data

Results flagged for a closer look

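In 2 members the response to CFA differed between genotypes by the test of the difference itself, iKO minus WT. For Etv1 the difference was -1.60 on the log2 scale, from 58.8 and 62.1 CPM in iKO CFA and 133 and 154 CPM in iKO vehicle, against 133 and 89.6 CPM in WT CFA and 72.9 and 101 CPM in WT vehicle. For Slc17a7 it was -2.03, from 131 and 140 CPM in iKO CFA and 247 and 283 CPM in iKO vehicle, against 218 and 158 CPM in WT CFA and 75.4 and 104 CPM in WT vehicle. In both members the CFA libraries were lower than the vehicle libraries in iKO, and the WT vehicle libraries, which stood apart in Malat1 and Fos, enter the difference. Summed pan-neuronal CPM was also lower in iKO CFA than in iKO vehicle, and its part in the difference was not tested beyond the scaling by those genes, which gave -0.36 for Etv1 and -0.81 for Slc17a7.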

How the results depend on the processing

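Calb1, lower in iKO averaged over treatments, kept its call in all 16 alternatives (log2 -1.59 to -1.29, adjusted p at most 0.0184). Scaling by pan-neuronal genes moved the median of all genes by -0.36 in CFA against vehicle in WT, 0.84 in iKO, -0.70 in iKO against WT under vehicle, 0.49 under CFA, -0.10 averaged and 1.20 in the interaction. It called 0 members in CFA against vehicle in WT, 0 in iKO and 0 in iKO against WT under CFA. Under vehicle it called 3, with Calb1 and Slc17a8 lower and Slc17a7 higher (13.4% of all genes). Averaged over treatments it called 3, with Calb1 and Slc17a8 lower and Calb2 higher (1.69%). In the interaction it called 0, where 13.4% of all genes were called. The sign turned there for Etv1 (-0.040) and Slc17a8 (-0.25) in CFA against vehicle in WT, for Slc17a8 (0.23) in CFA against vehicle in iKO, for Pvalb (-0.25) and Tafa4 (-0.16) under vehicle, for Pvalb (0.32), Runx3 (0.61) and Slc17a7 (0.076) under CFA, and in the interaction for Pvalb (0.57), Calb1 (0.066), Calb2 (1.17), Runx3 (1.37), Slc17a8 (0.48) and Tafa4 (0.76). The cause was not tested.

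A fit of the compared libraries alone called 0 members in CFA against vehicle in WT, 7 in iKO, 7 in iKO against WT under vehicle and 0 under CFA, where 4.04%, 45.3%, 42.9% and 0.183% of all genes were called, and the cause was not tested. The DESeq2 Wald test called 3 in CFA against vehicle in iKO (15.6% of all genes), 5 under vehicle (26.2%) and 4 under CFA (6.09%), and no filter on low counts called 2 in CFA against vehicle in iKO (1.98%) and 2 under CFA (1.94%). The length correction called 2 in CFA against vehicle in WT (17.3% of all genes), 0 in iKO (0.0346%) and 4 under vehicle (20.4%). It called 1 under CFA (1.77%), 2 averaged (5.94%) and 2 in the interaction (12.6%). The sign turned with it for Pvalb in CFA against vehicle in iKO (-0.28) and for Etv1 averaged (0.093). Runx3 in the interaction, at -0.04, was 0.036 with RLE factors, 0.039 with the Wald test, 0.034 with the replicate block and 0.090 with the length correction.

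Same-numbered libraries did not deviate together over all genes (correlations -0.14 to 0.03). Such correlations cannot show whether the numbers pair the libraries, because other differences between libraries enter them. With the replicate block Calb1 alone was called averaged over treatments, 1 member, and Slc17a7 alone in the interaction, 1 member, with 3.90% and 5.25% of all genes called. Calb2 averaged (1.63, adjusted p = 0.0591), Slc17a8 averaged (-1.03, adjusted p = 0.0582), Calb2 under vehicle (1.73, adjusted p = 0.0700) and Etv1 in the interaction (-1.61, adjusted p = 0.0519) were then not called, and Pvalb under CFA was 0.034.

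Leaving out 1 library gave 0 to 5 called members in CFA against vehicle in WT, 0 to 6 in iKO, 0 to 8 in iKO against WT under vehicle, 0 to 5 under CFA, 1 to 5 averaged and 0 to 5 in the interaction, with the highest counts without a WT CFA library. The share of all genes called was also highest without a WT CFA library, so these swings were not particular to the members. In CFA against vehicle in WT, leaving out 1 library gave Pvalb -0.012 to 1.09, Calb1 -0.49 to 0.12, Slc17a8 -0.43 to 0.67 and Ehmt2 -0.20 to 0.087. In iKO it gave Tafa4 -0.050 to 0.42. Under vehicle Runx3 was -0.19 to 0.053. Under CFA Pvalb was -0.47 to 0.62, Spp1 -0.19 to 0.63, Runx3 -0.72 to 1.02 and Tafa4 -0.056 to 0.24. Averaged, Pvalb was -0.0012 to 0.55, Runx3 -0.39 to 0.48 and Etv1 -0.21 to 0.078. In the interaction Pvalb was -0.94 to 0.15, Calb2 -0.94 to 0.71 and Runx3 -0.66 to 1.08. Calb2 and Runx3, with standard errors of 0.36 and 0.32 averaged over treatments, were the least precise.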
